A study of Homo sapiens with 16 samples.

Results

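Closely spaced tandem genes are neighbours read from the same DNA strand, so that RNA polymerase II leaving the first gene runs towards the start of the next. Pairs were taken by position alone: neighbouring genes of the expression table on chromosomes 1 to 6, 8 to 18, 20 and 21, on the same strand, without overlap, separated by 1 to 2000 bp, and each spanning less than 400 kb. The described members are the downstream genes, that is, the second gene of each pair in the direction of transcription, and the first gene serves as the upstream partner. There were 625 such downstream genes among the 19333 genes of the table, or 3.23%.

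Total RNA-seq was performed on HEK293 cells, an established line derived from human embryonic kidney. The scramble group (2 libraries) received a negative control RNA and the Top1 KD group (2 libraries) received siRNA against the nuclear Top1 transcript. Both groups were transfected at 10 nM, transfected again 48 hours later, and harvested 72 hours after the second transfection. The study used 2 Top1 siRNAs, and which of them these libraries received is not given in the sources used here. The labels number the replicates without saying that they came from separate cultures, so p-values measure the spread between these samples, which may be technical.

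Top1 is the topoisomerase that nicks one DNA strand and lets supercoils relax as polymerase moves along a gene. When a polymerase passes the cleavage and polyadenylation site of a gene, the RNA is cut and the polymerase is released some distance downstream. In tandem pairs the region where this occurs borders or overlaps the promoter of the next gene, and a transcript that is not ended there runs on into its neighbour. Transcription also leaves positive supercoils ahead of the polymerase and negative supercoils behind it, so neighbouring genes share a stretch of DNA that Top1 can act on.

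The libraries held 14681774 to 18366226 reads assigned to genes. The values are normalized counts, that is, reads divided by a size factor of each library and not scaled for gene length. Levels are therefore not compared between genes. A ratio of the downstream to the upstream gene is compared only between libraries, where gene length cancels. Gene identifiers could not be paired with names here. The level of Top1 itself and markers of the cell line were therefore not analysed here, and genes are given by their position in hg19, the build in the submitters' processing notes. Gains or losses of RNA in bulk samples cannot be told apart from changes in the share of cells that express a gene. The strand setting of the read counting is not given in the sources used here, and reads of a transcript that runs on from the upstream gene cannot be told apart from reads of the downstream gene's own transcript.

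The gaps ranged from 12 to 1996 bp with a median of 956 bp. Of the 625 pairs, 317 lay on the plus strand and 308 on the minus strand. Chromosome 1 carried the most pairs (101) and chromosome 13 the fewest (2). Several pairs were links of longer arrays: 72 of 529 runs held 3 or more genes, the longest run held 7 genes, and 96 genes were downstream of one neighbour and upstream of another. The downstream genes were short, with a median span of 8.2 kb against 11.7 kb for their upstream partners and 21.7 kb for all genes. In 132 pairs at least one gene overlapped another row of the table, where reads may be shared.

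Of the 625 downstream genes, 477 (76.3%) passed the filter, which asked for 10 or more normalized counts in 2 or more libraries, against 67.7% of all genes. Of the 148 others, 69 had no read in any library. A gene was called when limma gave a change of at least 1.5-fold and a Benjamini-Hochberg adjusted p under 0.05 across all 13086 genes tested. Among the 477 downstream genes 28 were called higher in Top1 KD (5.87%) and 11 were called lower (2.31%). Among all genes tested 3.88% were called higher and 4.26% lower. Higher calls thus made up 71.8% of the calls among downstream genes and 47.7% among all genes. On the 19 chromosomes that the pairs came from, 432 of the tested genes were called higher (3.99%) and 428 lower (3.95%). With library-size scaling the split of all genes turned, to 589 higher and 513 lower (53.4% higher), and that of the downstream genes was 32 and 11 (74.4% higher). The difference in split was not tested. The called rises lay between 0.59 and 1.46 on the log2 scale with a median of 0.90, and the called falls between -2.59 and -0.62 with a median of -0.86. The 39 called genes were spread over 11 chromosomes.

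The shift extended beyond the called genes but was small. The 477 genes had a median log2 fold change of 0.06, and over the 4 pairings of a Top1 KD with a scramble library it was between 0.05 and 0.09. The median of all genes tested was 0.0025, and that of the genes tested on the 19 chromosomes was 0.011. In 157 of the 477 downstream genes (32.9%) both Top1 KD libraries lay above both scramble libraries, beside 28.8% of all genes. In 108 of them (22.6%) both lay below, beside 29.0% of all genes. With a library left out, 20 genes were called without scramble replicate 1 (14 higher, 6 lower), 21 without scramble replicate 2 (16 and 5), 26 without Top1 KD replicate 1 (17 and 9) and 44 without Top1 KD replicate 2 (26 and 18). Higher calls outnumbered lower calls in each of these 4 fits, with a share of higher calls of 59.1% without Top1 KD replicate 2 against 71.8% with all libraries. The median was 0.03 without scramble replicate 2 and 0.12 without Top1 KD replicate 1.

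**Figure D1:**
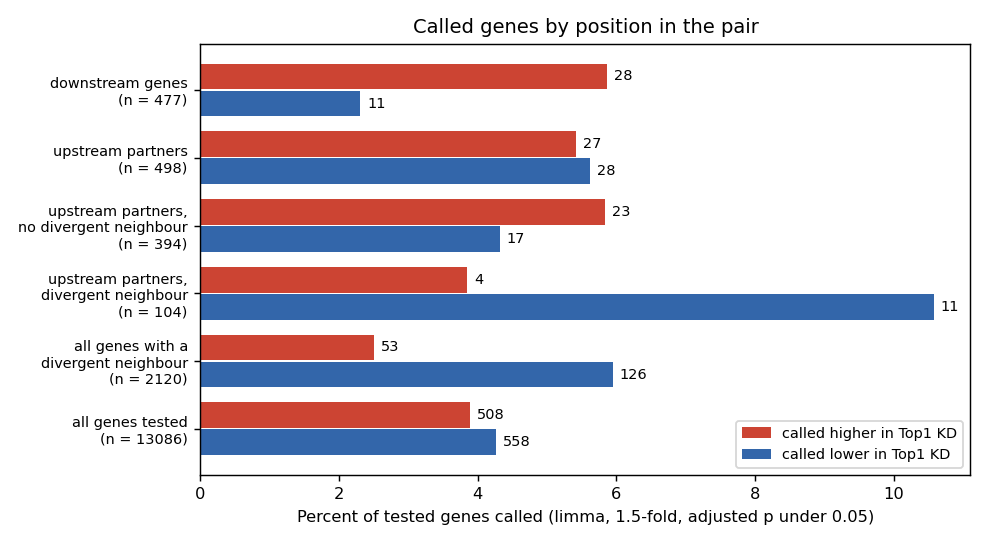
Percent of tested genes called higher (red) and lower (blue) in Top1 KD, by position in the close tandem pair, with the number called at the end of each bar and the number tested beside each name. Downstream genes have 28 higher and 11 lower calls, and upstream partners with a divergent neighbour within 2 kb (overlapping neighbours included) have 4 and 11.

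Of the called genes averaging 100 or more normalized counts over the libraries, the one that rose furthest was ENST00000251312 (chromosome 17, 34948228 to 34957235, plus strand), which starts 1950 bp beyond its neighbour. Its normalized counts were 202 and 221 in scramble and 593 and 572 in Top1 KD, a log2 fold change of 1.46 (SE 0.21, limma adjusted p = 0.00039). Its upstream partner had 874 and 778 against 863 and 677, a log2 change of -0.11 that was not called. The groups were well separated in the downstream gene and overlapped in its neighbour.

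ENST00000300213 (chromosome 15, 43477455 to 43487396, plus strand) begins 111 bp after the upstream gene. Its normalized counts were 372 and 412 in scramble and 1142 and 952 in Top1 KD, a log2 fold change of 1.41 (SE 0.17, limma adjusted p = 0.00010). The upstream gene went the other way, from 526 and 537 to 327 and 322, a log2 fold change of -0.71 (limma adjusted p = 0.020), and its call was lost without scramble replicate 1 (adjusted p = 0.19), scramble replicate 2 (adjusted p = 0.19) or Top1 KD replicate 1 (adjusted p = 0.070). Across this short interval the first gene was lower and the next gene higher in both Top1 KD libraries.

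A gene on chromosome 16 (70284134 to 70285833, minus strand, gap 365 bp) showed the same opposite movement. It rose from 779 and 751 to 1661 and 1587 normalized counts (log2 1.08, SE 0.13, limma adjusted p = 0.00011). Its upstream partner fell from 4244 and 3810 to 2168 and 2445 (log2 -0.80, limma adjusted p = 0.00027). A gene on chromosome 14 (74178494 to 74181128, minus strand, gap 697 bp) rose from 1444 and 1389 to 3076 and 2809 (log2 1.05, SE 0.11, limma adjusted p = 6.23e-05), next to a partner at 697 and 750 against 747 and 763. In these 4 pairs the downstream gene stayed called with any 1 library left out. Of the 10 largest rises, those on chromosome 1 (202848085 to 202858263 and 154916552 to 154928597), chromosome 6 (32083041 to 32096017) and chromosome 12 (56736494 to 56753858) had log2 fold changes of 1.38, 1.09, 1.28 and 1.08 with 4 libraries. Each lost its call in 3 of the 4 fits with a library left out, with log2 fold changes of 0.66 to 1.57 and adjusted p between 0.064 and 0.24 in those fits. The fit that kept the call was that without scramble replicate 2 for the first, without Top1 KD replicate 2 for the second and the third, and without scramble replicate 1 for the fourth. A second gene on chromosome 6 (31745295 to 31763730, log2 1.03) lost its call without scramble replicate 1 (adjusted p = 0.067), and one on chromosome 15 (75128457 to 75135538, log2 1.22) kept it in each of the 4 fits.

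The largest fall by the same rule was that of ENST00000371601 (chromosome 9, 139933922 to 139940655, minus strand, gap 1895 bp). Its normalized counts went from 630 and 699 to 215 and 230, a log2 fold change of -1.57 (SE 0.20, limma adjusted p = 0.00017). No read was assigned to its upstream partner in any library, so no ratio was tested. This fall stayed called with any 1 library left out. ENST00000219302 (chromosome 16, 1820287 to 1821731, minus strand, gap 160 bp) went from 270 and 300 to 160 and 115, a log2 fold change of -1.06 (SE 0.28, limma adjusted p = 0.020), while its partner had 1224 and 987 against 1189 and 1166. This second fall was no longer called without scramble replicate 1 (adjusted p = 0.15), scramble replicate 2 (adjusted p = 0.21) or Top1 KD replicate 2 (adjusted p = 0.079).

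Among abundant downstream genes, one on chromosome 17 (79989500 to 79992078, plus strand, gap 473 bp) fell from 4381 and 4945 to 2550 and 2580 (log2 -0.86, SE 0.10, limma adjusted p = 0.00011). Another on chromosome 9 (139702374 to 139735639, plus strand, gap 201 bp) fell from 4129 and 3959 to 2541 and 2479 (log2 -0.69, SE 0.10, limma adjusted p = 0.00046). Both kept their call with any library left out. On chromosome 16 a pair of successive members fell together: the gene at 29827832 to 29831438 went from 2377 and 2479 to 1486 and 1427 (log2 -0.74), and the next gene, 291 bp further, went from 437 and 425 to 233 and 272 (log2 -0.77). The second of these lost its call without scramble replicate 1 (adjusted p = 0.23), scramble replicate 2 (adjusted p = 0.18) or Top1 KD replicate 1 (adjusted p = 0.11).

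**Figure D2:**
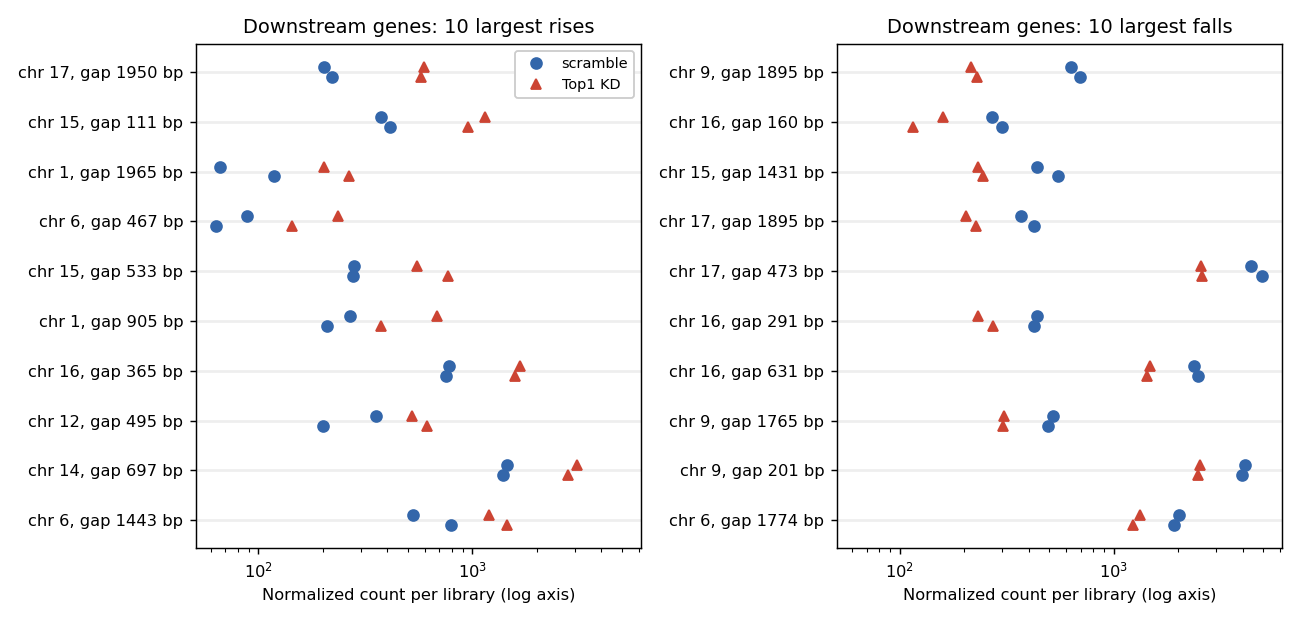
Normalized counts on a log axis in each of the 2 scramble (blue circles) and 2 Top1 KD (red triangles) libraries for the 10 largest rises and 10 largest falls among called downstream genes averaging 100 or more, each row named by chromosome and gap. The groups do not overlap in any row, which the choice of these genes required; the gene in the top left row goes from 202 and 221 to 593 and 572.

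None of the 5 downstream genes with the highest counts was called. The most counted, on chromosome 11 (62327073 to 62341445, minus strand), had 45909 and 40286 in scramble and 38155 and 38113 in Top1 KD (log2 -0.17, limma adjusted p = 0.21). On chromosome 12 (6643093 to 6647537, plus strand) counts were 33043 and 31319 against 42707 and 47290 (log2 0.48, limma adjusted p = 0.0022), a difference below the 1.5-fold threshold. On chromosome 16 (18792617 to 18801656, minus strand) they were 19158 and 22342 against 14117 and 14792 (log2 -0.52, limma adjusted p = 0.0019), also below it, and this gene was called only without scramble replicate 1 (log2 -0.63, adjusted p = 0.016). The 2 others of the 5 had log2 fold changes of -0.10 and 0.20 and were not called.

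Of the 3 pairs with the smallest gaps, 1 had a called downstream gene. At 12 bp, the smallest gap, the downstream gene (chromosome 11, 118401924 to 118406550) had 298 and 221 against 431 and 318 normalized counts, a log2 difference of 0.53 that was not called (limma adjusted p = 0.16). At 23 bp (chromosome 1, 115247090 to 115259515) the values were 2160 and 2271 against 2589 and 2708, a log2 difference of 0.26 (limma adjusted p = 0.12). At 31 bp (chromosome 6, 33267471 to 33282164) they were 341 and 263 against 674 and 436, and this gene was called (log2 0.85, limma adjusted p = 0.022). The call of the last gene was lost without scramble replicate 1 (adjusted p = 0.085), scramble replicate 2 (adjusted p = 0.24) or Top1 KD replicate 1 (adjusted p = 0.23).

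Downstream genes were also divided by span and by strand. By span, 131 genes under 5 kb had a median log2 fold change of -0.06, and the median was 0.05 for 229 genes of 5 to 20 kb, 0.12 for 54 genes of 20 to 40 kb and 0.14 for 63 genes of 40 to 400 kb. All tested genes in the same classes had medians of -0.09, -0.05, -0.04 and 0.05. In each class the median of the downstream genes lay above that of all genes of that length. The class of 5 to 20 kb, which held the most genes, had 17 higher (7.42%) and 4 lower calls (1.75%). Among all genes of that span 3.48% were called higher and 4.88% lower. In either direction 9.17% of this class were called, beside 8.18% of all downstream genes and 8.36% of all genes of that span. The other classes had fewer calls. Under 5 kb 5 were higher (3.82%) and 4 lower (3.05%), beside 2.30% and 5.84% of all genes of that span. At 20 to 40 kb there were 3 (5.56%) and 2 (3.70%), beside 3.59% and 3.98%. At 40 to 400 kb there were 3 (4.76%) and 1 (1.59%), beside 4.24% and 3.73%. By strand, 15 of 233 plus-strand genes were called higher and 5 lower, and 13 of 244 minus-strand genes higher and 6 lower.

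Whether the upstream gene was itself detected was examined next. Of 408 downstream genes whose upstream partner also passed the filter, 27 were called higher and 8 lower, with a median log2 fold change of 0.07. Of the 69 whose partner did not pass, 1 was called higher and 3 lower, with a median of 0.04 and a range over library pairings of -0.13 to 0.12. The difference between these classes was not tested. Among 76 tested genes lying between 2 close same-strand neighbours, 7 were called higher and 1 lower, with a median of 0.03.

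Of 498 upstream partners tested, 27 were called higher (5.42%) and 28 lower (5.62%), and the median log2 fold change was -0.02. At a fold threshold of 2 the split was 9 higher and 5 lower, beside 10 and 4 of the downstream genes. It was 31 and 26 with library-size scaling and 25 and 20 without overlapping genes. The difference between upstream partners and downstream genes was not tested. Without scramble replicate 1, scramble replicate 2 or Top1 KD replicate 1 the calls fell to 21, 27 and 35. In 123 of the 498 upstream partners (24.7%) both Top1 KD libraries lay above both scramble libraries, and in 147 (29.5%) both lay below. Among all genes tested these shares were 28.8% and 29.0%, and 3.88% were called higher and 4.26% lower. Upstream partners can lie head to head with a gene on the other strand, a divergent neighbour, whereas the rule gives downstream genes a same-strand neighbour on that side. The counts below set no lower limit on this gap, so divergent neighbours that overlap the gene are included. The 104 upstream partners with a divergent neighbour within 2 kb had 4 higher (3.85%) and 11 lower calls (10.6%). Their median was -0.18 (-0.22 to -0.11 over library pairings). The 394 without one had 23 higher (5.84%) and 17 lower calls (4.31%) and a median of 0.01. Over the whole table, 2120 genes with a divergent neighbour within 2 kb had a median of -0.09, with 2.50% called higher and 5.94% lower. The 10966 genes without one had a median of 0.02, with 4.15% called higher and 3.94% lower.

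The ratio of the downstream to the upstream gene compares both genes within one library and needs no scaling between libraries. It was tested with limma as the difference of the log2 values in the 408 pairs with both genes past the filter, fitted together with all 4593 same-strand neighbours at any gap. In 36 pairs the ratio was called higher in Top1 KD (8.82%) and in 13 lower (3.19%), or 49 in all (12.0%). Among the 4593 neighbours 12.0% were called, 7.49% higher and 4.55% lower. The total share of called ratios in close pairs was thus that of all same-strand neighbours, with a split further to the higher side. At a fold threshold of 2 the split of close pairs was less marked, with 14 higher and 9 lower ratios. Higher ratios made up 60.9% of these calls, against 73.5% at 1.5-fold. The split was also less marked without scramble replicate 2, Top1 KD replicate 1 or Top1 KD replicate 2. The median log2 ratio change was 0.073 without scramble replicate 1 and 0.11 without scramble replicate 2. It was 0.10 without Top1 KD replicate 1 and 0.13 without Top1 KD replicate 2. The difference in split from all same-strand neighbours was not tested.

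Higher ratios arose at either end of the pair. Of the 36 pairs with a higher ratio, the downstream gene was called higher in 18, the upstream gene was called lower in 9, both in 2, and neither gene was called in 11. Of the 13 with a lower ratio, the downstream gene was called lower in 3, the upstream gene higher in 8, both in 1, and neither in 3. Higher ratios thus came more often with a called downstream gene, and lower ratios with a called upstream gene. This difference was not tested, and it depends on how many genes were called at each position. Among all 408 pairs, only the downstream gene was called in 24 where it rose and in 6 where it fell. Only the upstream gene was called in 18 where it rose and in 22 where it fell. The downstream genes of these 408 pairs had 27 higher and 8 lower calls. The ratios come from the same values as the gene calls, so these counts are no separate evidence.

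The largest rise of a ratio among pairs with both means of at least 100 came mainly from the upstream gene. On chromosome 16 (downstream gene 770975 to 772601, plus strand, gap 1320 bp) the upstream gene went from 310 and 161 to 41.1 and 75.6 normalized counts, and the downstream gene from 286 and 226 to 299 and 477. The log2 ratio rose by 2.55 (SE 0.42, limma adjusted p = 0.00031), with an uncalled difference of 0.57 in the downstream gene. The chromosome 15 pair with a gap of 111 bp followed with a ratio change of 2.12 (SE 0.24, limma adjusted p = 6.08e-06), and the chromosome 16 pair with a gap of 365 bp with 1.89 (SE 0.18, limma adjusted p = 2.12e-06). In those pairs both genes contributed, in opposite directions. All 3 ratios stayed called with any 1 library left out, whereas the call of the upstream gene at a gap of 1320 bp was lost without scramble replicate 1 (adjusted p = 0.20) or Top1 KD replicate 1 (adjusted p = 0.070).

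The largest fall of a ratio under the same condition also lay in the upstream gene. On chromosome 3 (downstream gene 49067140 to 49131796, minus strand, gap 1569 bp) the upstream gene had 1552 and 1252 normalized counts in scramble and 3730 and 3626 in Top1 KD, whereas the downstream gene had 1830 and 1911 against 1459 and 1717. The log2 ratio change was -1.64 (SE 0.18, limma adjusted p = 3.24e-06). A second pair on chromosome 3 (downstream gene 49145564 to 49158371, gap 176 bp) behaved likewise, with an upstream gene at 195 and 197 against 545 and 508 and a ratio change of -1.15 (SE 0.26, limma adjusted p = 0.0046). The abundant downstream gene on chromosome 16 (18792617 to 18801656) lost 0.52 while its partner gained 0.57 on the log2 scale, and the ratio changed by -1.09 (SE 0.13, limma adjusted p = 1.81e-05). These 3 ratios also stayed called with any 1 library left out. Those that ranked between them in size did not. On chromosome 1 (downstream gene 43312280 to 43318148, gap 1626 bp) the ratio changed by -1.18 and its call was lost without scramble replicate 2 (adjusted p = 0.49). In the chromosome 16 pair with a gap of 160 bp it changed by -1.16 and its call was lost without scramble replicate 1 (adjusted p = 0.055) or scramble replicate 2 (adjusted p = 0.29).

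**Figure D3:**
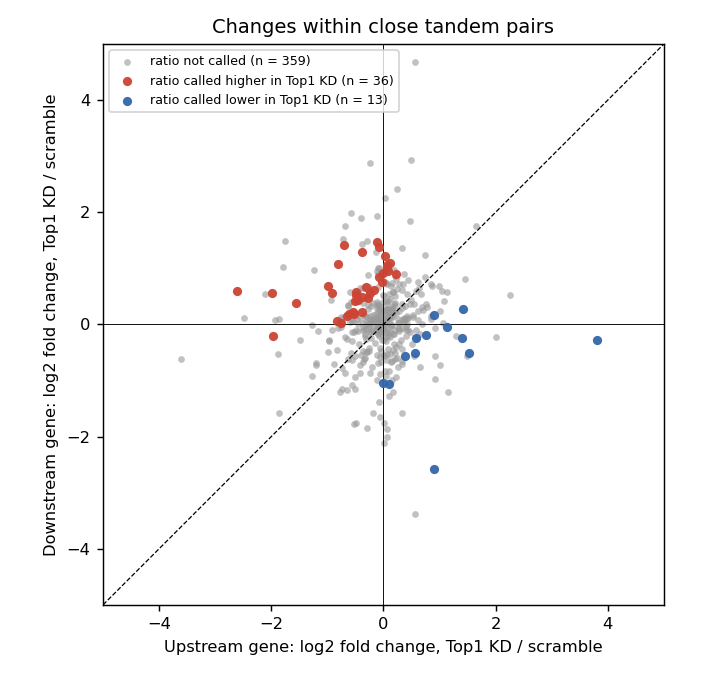
Log2 fold change (Top1 KD over scramble) of the upstream gene on the x axis and of the downstream gene on the y axis for 408 close tandem pairs, with 36 pairs of higher ratio in red, 13 of lower ratio in blue and the others in grey. The dashed line marks equal change; grey points far from it include genes just above the filter, and the points do not gather along the line (Pearson r 0.04).

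The changes of neighbours were at most weakly related. Across the 408 pairs the fold changes of the upstream and downstream gene had a Pearson r of 0.04 and a Spearman rho of 0.06, given as a description because pairs share the same 4 libraries. Within gap classes r was 0.07 at 1 to 250 bp, 0.04 at 251 to 500 bp, 0.28 at 501 to 1000 bp and -0.13 at 1001 to 2000 bp. For same-strand neighbours more than 2000 bp apart r was 0.07 over 3192 pairs. For close divergent neighbours (566 pairs) and close convergent neighbours (479 pairs), chosen with the same gap and span, it was 0.01 in both. In 333 of the 408 close tandem pairs neither gene was called, in 70 one was, and in 5 both were. Among these 5, both genes rose in 1, both fell in 1, the upstream gene fell and the downstream gene rose in 2, and the reverse held in 1.

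The pair with the reverse order was the most extreme of the 5. On chromosome 11 (downstream gene 46402306 to 46405349, plus strand, gap 202 bp) the downstream gene had 105 and 109 normalized counts in scramble and 14.1 and 20.4 in Top1 KD, a log2 fold change of -2.59 (SE 0.56, limma adjusted p = 0.0068). The upstream gene had 318 and 362 against 669 and 606 (log2 0.91, limma adjusted p = 0.0047), a call lost without scramble replicate 1 (adjusted p = 0.097) or Top1 KD replicate 1 (adjusted p = 0.057). The ratio changed by -3.49 (SE 0.65, limma adjusted p = 0.00096) and stayed called with any 1 library left out. The downstream call was lost without scramble replicate 1 (adjusted p = 0.12) or scramble replicate 2 (adjusted p = 0.13). In the pair that rose together, on chromosome 1, the downstream gene (36396679 to 36538101, gap 1468 bp) had 1233 and 1522 against 2232 and 1900, a log2 fold change of 0.59 that lay at the 1.5-fold threshold and fell just under it with edgeR (0.58) and DESeq2 (0.58). Its call was also lost without scramble replicate 1 (adjusted p = 0.20) or Top1 KD replicate 1 (adjusted p = 0.098).

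Over all 408 pairs the ratio shifted slightly towards the downstream gene. The median log2 ratio per library was -0.65 and -0.68 in scramble and -0.60 and -0.53 in Top1 KD. Both Top1 KD libraries thus lay above both scramble libraries, for which the two-sided exact permutation p was 0.33, the smallest that 2 against 2 libraries allow. The median change within pairs was 0.09 on the log2 scale, and 0.08 to 0.15 over the 4 pairings of libraries. Between replicates of one group the same median was 0.01 for scramble and -0.03 for Top1 KD. The change was positive in 226 of 408 pairs (55.4%).

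The ratio change did not fall off steadily with the gap. The median change was 0.18 for 54 pairs at 1 to 250 bp, 0.21 for 68 pairs at 251 to 500 bp and 0.16 for 107 pairs at 501 to 1000 bp. It was -0.04 for 179 pairs at 1001 to 2000 bp, where the 4 pairings of libraries gave -0.01 to 0.06. Beyond the members' limit it was positive again, 0.09 for 843 pairs at 2001 to 10000 bp, 0.07 for 1292 pairs at 10001 to 50000 bp and 0.06 for 1057 pairs further apart. A small shift towards the downstream gene was thus present among same-strand neighbours at larger gaps as well, and the difference between gap classes was not tested. The pairings of libraries ranged from 0.01 to 0.30 in the class of 1 to 250 bp, the widest of the 7 classes.

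**Figure D4:**
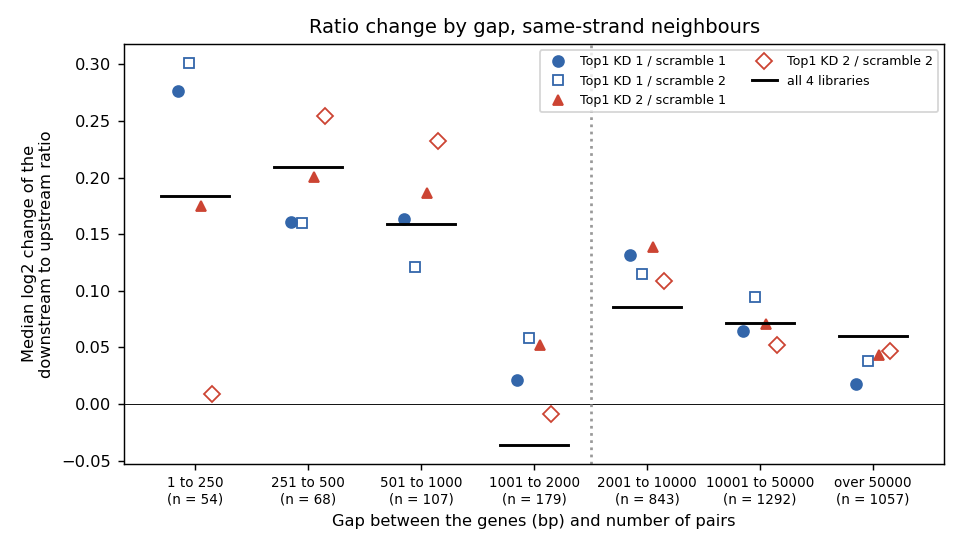
Median log2 change of the downstream to upstream ratio (Top1 KD over scramble) in same-strand neighbour pairs by gap in bp; points are the 4 pairings of a Top1 KD with a scramble library, and black bars are the median of the change fitted from all 4 libraries. The dotted line marks the 2000 bp limit of the members; bars lie at 0.16 to 0.21 up to 1000 bp, at -0.04 between 1001 and 2000 bp and at 0.06 to 0.09 beyond.

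Called ratios followed the same classes only in part. At 251 to 500 bp 6 ratios were called higher (8.82%) and 0 lower. At 501 to 1000 bp the counts were 10 (9.35%) and 2 (1.87%), and at 1001 to 2000 bp 16 (8.94%) and 7 (3.91%). At 1 to 250 bp there were 4 of each (7.41%). In the larger gaps 7.36% of 3192 ratios were called higher and 4.36% lower. Near the limit, 19 pairs with gaps of 1901 to 2000 bp had a median ratio change of 0.23 and a median downstream log2 fold change of 0.37, and 19 same-strand pairs with gaps of 2001 to 2100 bp had 0.19 and -0.05. Close pairs whose upstream gene had a divergent neighbour (overlapping ones included) had a median ratio change of 0.17 (81 pairs). Those without one had 0.06 (327 pairs). On the plus strand the median ratio change was 0.14 (195 pairs) with 1.54% of ratios called lower, and on the minus strand 0.06 (213 pairs) with 4.69%, a difference that was not tested.

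Downstream genes with few reads next to an abundant gene were summed, because single genes of this kind hold few reads. There were 24 downstream genes with a mean under 10 normalized counts whose upstream partner had a mean of at least 1000, and 4 of them had no read. Together the 24 held 83 and 65 reads in scramble and 111 and 102 in Top1 KD. Per 1000 normalized counts of their upstream partners this was 0.872 and 0.563 in scramble and 1.25 and 1.03 in Top1 KD. Both Top1 KD libraries were the higher ones, again at the smallest two-sided exact permutation p of 0.33.

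A second class, 90 downstream genes below the filter with a tested upstream partner, was closer between the groups. It did not hold all of the 24 genes, because a gene with a mean under 10 can pass the filter. It held 2.63 and 2.89 normalized counts per 1000 upstream counts in scramble and 3.19 and 3.03 in Top1 KD, and 23 of these genes had no read. As normalized counts the sums were 257 and 284 in scramble and 300 and 284 in Top1 KD, where the groups overlapped (exact permutation p = 0.667).

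Single genes of this kind were at the limit of detection. Next to the partner with the highest mean, at 18970 to 20460 normalized counts, the downstream gene on chromosome 17 (7482785 to 7485429, gap 462 bp) had 8.5 and 3.5 normalized counts in scramble and 10.8 and 13.6 in Top1 KD. This gene passed the filter and was not called (log2 1.00, limma adjusted p = 0.64). On chromosome 15 (72452148 to 72490126, gap 1244 bp) the values were 18.1 and 7.0 against 4.3 and 1.9, and on chromosome 6 (33244917 to 33246602, gap 630 bp) 11.7 and 2.6 against 0 and 0. On chromosome 1 (156213206 to 156217881, gap 1134 bp) they were 0 and 0 against 1.1 and 8.7, and on chromosome 5 (10441636 to 10465136, gap 1136 bp) 9.6 and 5.3 against 15.2 and 1.9. Of these 5 genes, both Top1 KD libraries lay above both scramble libraries in 2, below in 2, and the groups overlapped in 1. Over the 24 genes they lay above in 7 and below in 3. Among all genes tested they lay above in 28.8% and below in 29.0%. Differences of this size in single genes were not resolved at this depth.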

How the data were processed

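Total RNA of 4 HEK293 samples was sequenced; DRIP-seq, DRIPc-seq and ChIP-seq samples were not used here. The authors mapped reads with TopHat2 2.0.5 to hg19, counted them with HTSeq and normalized them with DESeq2. The annotation release is not given in the sources used here. The per-library values the authors deposited are a signal: reads divided by a size factor. They also deposited their own log2 fold changes, test statistics (a score), p-values and calls, which were not used. Each of the 4 library columns was matched by its label, with 0 left over. Whole reads were recovered for 100% of values (within 0.05 read).

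Genes were tested with limma 3.58.1 in R 4.3.3, with a mean-variance trend, on log2(normalized count + 1), so fold changes of low genes are understated. For ratios the trend followed the lower of both genes' mean levels. edgeR 4.0.16 and DESeq2 1.42.0 on recovered reads called 1089 and 1098 of 13086 genes, beside 1066 with limma. The scripts were tested on simulated data. Other alternatives changed the pseudocount, filter, scaling, thresholds and largest gap, blocked on replicate, or left out overlapping genes or each library; leaving out pairs that share a gene was chosen after seeing the data. The members, gap limit and lists were chosen with earlier results of these data known. None of the 19333 identifiers was paired with a name, so planned gene lists were not run. Genes were named by rank: up to 10 called rises and falls (mean at least 100, groups not overlapping), 5 ratio rises and falls (both means at least 100), the 3 smallest gaps, the 5 highest means, the 5 low genes with the most abundant partners, and pairs with both genes called.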

Additional observations from a re-analysis of the deposited data

How the results depend on the processing

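Downstream genes kept more higher than lower calls under every alternative run. With no fold threshold 65 downstream genes and 85 upstream partners were called, and at 2-fold 14 (10 higher, 4 lower) and 14 (9 and 5), with 23 ratios. With gaps up to 1000 bp, which holds fewer pairs, the counts were 22, 31 and 26, the upstream median was -0.083, the ratio median 0.16 and the correlation within pairs 0.17. A mean of at least 100 gave a downstream median of 0.094, a ratio median of 0.11 and a correlation of 0.098, and no filter a correlation of 0.091. Library-size scaling gave medians of 0.086 downstream and 0.0026 upstream, a change of sign, and leaving out overlapping genes 0.093 and -0.0012. Pairs that share no gene gave 28 downstream calls (19 higher, 9 lower). With each library left out, downstream calls ranged from 20 to 44, upstream calls from 21 to 60 and ratio calls from 26 to 72, the downstream median from 0.030 to 0.12, the upstream median from -0.043 to -0.0032, the ratio median from 0.073 to 0.13 and the correlation from 0.0021 to 0.059. The replicate numbers did not pair the samples (correlation of their deviations -0.010), and with the replicate block 44 downstream genes, 56 upstream partners and 59 ratios were called. Of 184 alternative values for the 23 named downstream genes that were called, 146 stayed called, 38 were no longer called and 0 reversed. Nearly all of the lost calls came from fits with a library left out. Such fits keep 1 library in a group, so a call can be lost there with little change in fold. The chromosome 11 gene at 46402306 had -2.62 and -2.56 without scramble replicate 1 or 2, against -2.59. The chromosome 1 gene at 154916552 had 0.66 without Top1 KD replicate 1, against 1.09. Lost calls therefore do not tell dependence on a single library apart from the smaller number of libraries. Of 104 values for 13 named genes not called, 1 became called, and the chromosome 1 gene at 43312280 ranged from -0.14 to 0.051 with a library left out, changing sign without scramble replicate 2 (0.051) and Top1 KD replicate 1 (0.012). Read depth limits the low downstream genes, and 2 libraries per group limit every exact test over libraries to 0.33. The causes of these differences were not tested.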
